A study of Mus musculus with 15 samples.

Results

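Spleen XCR1+ dendritic cells (DCs) of mice that had received polyI:C and carried CCR7 were compared with CCR7- XCR1+ DCs of untreated spleens. The members were chosen by sample title, 3 arrays of each kind, and they are 6 of the 15 arrays in the series. The treated mice were given 10 µg polyI:C by intraperitoneal injection and their spleens were taken after 18 h. Cells of both kinds were sorted as CD11c+ CD317- CD172a-, with CD117+ CCR7- as the immature gate and CD117- CCR7+ as the mature gate. XCR1 is part of the sample names and not of the gates. A further group, spleen DCs in the same mature gate from untreated mice (3 arrays), was used to ask where the treated cells differed from CCR7+ cells that had matured without polyI:C. The remaining 6 arrays, CCR7- and CCR7+ thymus DCs of untreated mice, entered only the estimate of the spread. Strain, age and sex of the mice were not analysed here. The labels do not say whether the 3 arrays of a group came from separate mice or from pools, so the p-values measure only the spread between these arrays. CCR7- cells of treated mice were not analysed here, so the comparison joins the effect of the treatment with that of the CCR7+ gate, and these cannot be told apart in it.

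XCR1+ DCs are the DC lineage that depends on Batf3 and Irf8 and that presents antigen from dead cells on MHC class I to CD8+ T cells. PolyI:C is a synthetic double-stranded RNA that imitates a viral genome. It is recognised in endosomes by TLR3, which immature XCR1+ DCs carry at high level, and in the cytosol by the helicases RIG-I (Ddx58) and MDA5 (Ifih1). These receptors lead to type I interferon, which acts on interferon-stimulated response elements of antiviral genes, and to NF-kB, which drives costimulatory and inflammatory genes. Maturing DCs gain CCR7, which guides them towards T cell zones, and stop taking up antigen.

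Every value below is a log2 RMA value of an Affymetrix mouse expression array, and every change is a log2 fold change, in which 1 is a doubling. RMA gives no detection call and no count, so the number of arrays limits the precision. A gene was called when limma's Benjamini-Hochberg adjusted p over all 13629 genes tested was under 0.05, and adjusted p values below are of this kind. Values of 3 arrays are given in the order of replicates 1 to 3. For each gene listed by array and called, the treated arrays all lay on 1 side of the arrays of the group they are compared with. The median SD over the arrays of a group was 0.18 in CCR7- cells, 0.21 in polyI:C CCR7+ cells and 0.27 in untreated CCR7+ cells. Within groups, arrays correlated with r from 0.990 to 0.992 (CCR7-), 0.986 to 0.990 (polyI:C) and 0.977 to 0.985 (untreated CCR7+). The BioB hybridisation controls averaged 7.81 on polyI:C array 1 and 7.93 on untreated CCR7+ array 1, against 4.71 to 6.72 on the other arrays of the spleen groups, and the 3′ minus 5′ difference of the Actb controls was also highest on these arrays (1.60 and 2.09, against 0.49 to 1.0). For the Gapdh controls this difference was 5.22 on untreated CCR7+ array 1 and 3.98 on polyI:C array 1. On the other arrays of the spleen groups it was 2.85 to 4.01, so polyI:C array 1 did not stand out by this control. The part of these technical differences in the results was not tested, beyond leaving out each array.

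The arrays followed the gates in part. Ccr7, the receptor for migration to T cell zones, was 7.47, 8.80 and 9.0 in CCR7- cells and 12.64, 12.78 and 13.18 in polyI:C CCR7+ cells, a change of 4.44 (SE 0.34, adjusted p = 1.41e-07). Kit (CD117) fell from 11.49, 11.07 and 11.18 to 7.89, 9.15 and 7.95. The shared gates did not give level transcripts. Itgax (CD11c), positive in both gates, fell by 3.88, and Bst2 (CD317), negative in both gates and itself interferon-stimulated, rose by 3.42. Sirpa (CD172a) differed by 0.38 and was not called (without CCR7- array 2 it was called higher, at 0.58). Xcr1 transcript was 11.81, 11.50 and 11.43 in CCR7- cells and 7.85, 7.75 and 7.01 in polyI:C CCR7+ cells. The groups thus did not overlap, as for 31.7% of all genes in this direction, and the cells labelled XCR1+ held far less of the transcript after maturation. In such bulk samples fewer cells that carry a transcript and less of it per cell cannot be told apart.

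Of the 13629 genes tested, 6329 (46.4%) were called: 2508 higher (18.4%) and 3821 lower (28.0%) in polyI:C CCR7+ cells. At least 2-fold changes numbered 1307 higher and 2463 lower, and 103 rises and 55 falls were at least 16-fold. The median change of all genes was 0.02. Among genes with established symbols, the 12 largest rises were Ifit1 (8.19), Stat4 (7.14), Arg2 (6.40), Asprv1 (6.38), Rtp4 (6.33), Oasl2 (6.30), Oasl1 (6.15), Ccl5 (6.13), Ifit3 (6.12), Oprd1 (6.03), Fgfbp3 (6.0) and Car13 (5.94). Antiviral effectors thus stood beside genes of DC maturation (Ccl5, a chemokine for T cells), a transcription factor of interleukin-12 signalling (Stat4), an arginase (Arg2) and an opioid receptor (Oprd1). The largest falls were Hepacam2 (-6.28), Slc9a9 (-5.77), Gpr34 (-5.42), Havcr2 (-5.10), Itga8 (-4.98), Egr3 (-4.91), Ptpre (-4.79), H2-Ob (-4.77), Cd244a (-4.73), Evl (-4.72), P2ry6 (-4.71) and Sult1a1 (-4.68). Of the 796 genes called lower by at least 4-fold, 651 were lowest on polyI:C array 3, so the depth of many falls varied between the treated arrays.

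**Figure D1:**
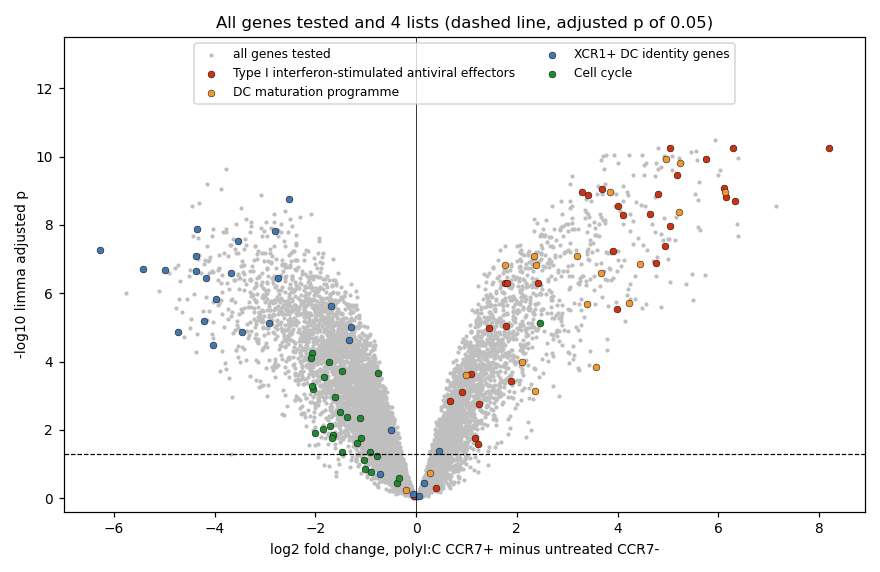
Log2 fold change (polyI:C CCR7+ minus untreated CCR7-, 3 arrays each) against -log10 of the limma adjusted p, for all 13629 genes (grey) and 4 lists (coloured). Antiviral effectors and maturation genes lie on the right up to 8.19, and XCR1+ DC identity genes lie on the left down to -6.28, with most cell cycle genes at smaller falls.

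Interferon-stimulated antiviral effectors rose almost throughout. Of 34 tested members 32 rose and none was called lower, against 18.4% of all genes called higher, and their median change was 3.81, against 0.02 over all genes. Counts of the lists that follow are to be read against the same 18.4% higher and 28.0% lower of all genes. Ifit1, which binds viral RNA caps, was 4.02, 4.25 and 4.36 in CCR7- cells and 11.69, 12.60 and 12.93 in polyI:C CCR7+ cells (log2 fold change 8.19, SE 0.26, adjusted p = 5.51e-11). Every CCR7- array lay below the filter value of 4.39 (log2), under which signal was treated as dim, and every treated array far above it. Oasl2, a relative of the oligoadenylate synthetases, rose from 4.26, 4.22 and 3.74 to 10.28, 10.49 and 10.34 (log2 fold change 6.30, SE 0.20, adjusted p = 5.51e-11). Rsad2 (viperin, which makes an antiviral nucleotide) was at 7.81, 8.54 and 8.51 and reached 13.96, 14.15 and 13.98. Those genes showed no overlap between the groups, as did 25.5% of all genes in this direction. Oas1a, which makes the activator of RNase L, rose by 5.18, and Xaf1, a proapoptotic interferon target, by 5.04. The dynamin-like GTPase Mx1 rose by 4.0 and its relative Mx2 by 1.08. At the low end Oas2 rose by 0.91 and Trim30a by 0.68. The members not called were Ifitm1 (0.40) and Ifitm2 (-0.04), while Ifitm3, which blocks viral entry, rose by 1.77. PolyI:C array 1 held the lowest treated value for 30 of the 34 members.

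Antiviral genes also set polyI:C CCR7+ cells apart from CCR7+ cells of untreated mice, in a comparison that shares the polyI:C arrays with the one above. In that comparison 1169 genes (8.58%) were higher and 1317 (9.66%) lower after polyI:C, 18.2% in all. Of the 34 effectors 32 were higher and none lower, with a median of 2.93. Ifit1 was 6.22, 6.06 and 6.0 in untreated CCR7+ cells, and the treated cells were 6.32 higher. Ifit2 had fallen from 8.07, 8.02 and 8.17 in CCR7- cells to 6.57, 7.5 and 6.96 in untreated CCR7+ cells, and it stood at 12.12, 13.16 and 12.94 after polyI:C (log2 fold change 5.73, SE 0.25, adjusted p = 2.43e-09 against untreated CCR7+ cells). Ifit3 (5.80), Oasl2 (5.73), Rtp4 (5.53), Plagl1 (5.37), Ramp3 (5.06) and Oas1a (5.04) completed the 8 largest rises over untreated CCR7+ cells. Plagl1 encodes a zinc finger factor and Ramp3 a partner of the calcitonin receptor family, and Plagl1 was 5.48, 3.72 and 6.04 in CCR7- cells, 4.59, 4.01 and 4.24 in untreated CCR7+ cells and 9.11, 9.51 and 10.33 after polyI:C. The count of lower genes was 817 without polyI:C array 3, and with only the 6 compared arrays in the fit 534 genes were higher and 547 lower.

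**Figure D2:**
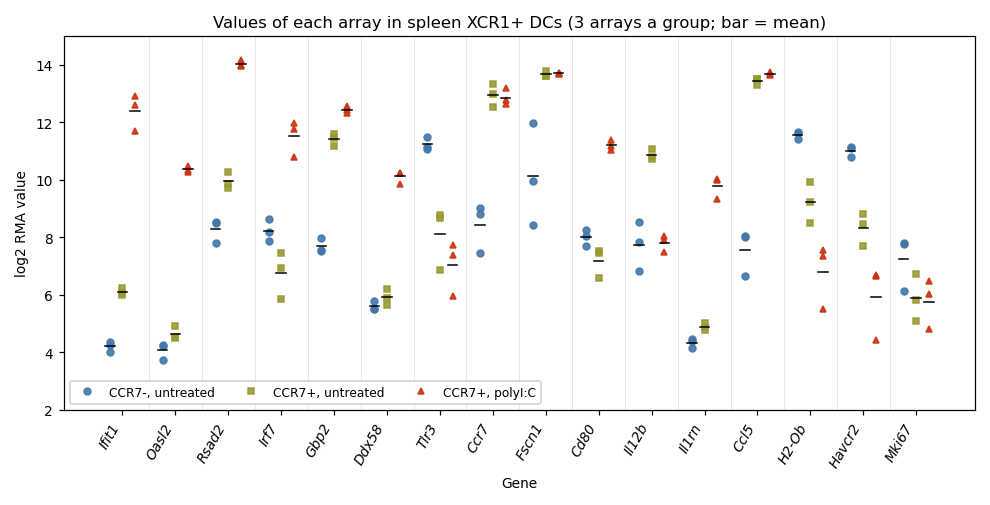
Log2 RMA value of each array for 16 genes in CCR7- untreated (circles), CCR7+ untreated (squares) and CCR7+ polyI:C (triangles) spleen DCs, 3 arrays a group, with the mean as a bar. Ifit1, Oasl2, Rsad2, Ddx58, Cd80 and Il1rn are highest in the treated cells, Ccr7, Fscn1 and Ccl5 are above CCR7- cells in both CCR7+ groups, and Il12b is highest in untreated CCR7+ cells.

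Promoters of the antiviral genes and of the interferon-inducible GTPases are shown because interferon acts on them through a known element. The letters GAAANNGAAA, the core of the interferon-stimulated response element, were searched on both strands in RefSeq promoters (250 bases before to 50 after each start, GRCm38.p6), available for 10990 of the 13629 genes. At least 1 promoter held the letters in 408 of these genes (3.71%), in 13 of 25 antiviral effectors and in 6 of 6 GTPases of the list. Among the 13 effectors was Ifitm2, which was not called against CCR7- cells (-0.04) and whose stretch is not printed. The letters were found in 0 of 16 NF-kB genes and 0 of 21 identity genes. The stretches below lie before the start and are written along the gene, with the match nearest the start in capitals. A match that starts with TTTC lies on the other strand. The Ifit1, Oas1a, Gbp3 and Irgm1 stretches also hold a further match in small letters, which overlaps the capitals in Oas1a, Gbp3 and Irgm1.
Ifit1 at chr19:34640779-34640838 (plus strand): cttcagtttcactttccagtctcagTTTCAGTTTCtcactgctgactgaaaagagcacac
Ifit3 at chr19:34583382-34583441 (plus strand): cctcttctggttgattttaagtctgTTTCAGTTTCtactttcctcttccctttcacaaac
Oas1a at chr5:120907526-120907564 (minus strand): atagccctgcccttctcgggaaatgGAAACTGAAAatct
Oas3 at chr5:120777700-120777759 (minus strand): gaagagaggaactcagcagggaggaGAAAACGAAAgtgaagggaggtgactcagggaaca
Rsad2 at chr12:26456538-26456597 (minus strand): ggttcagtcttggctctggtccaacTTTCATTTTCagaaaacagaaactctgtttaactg
Slfn8 at chr11:83020824-83020883 (minus strand): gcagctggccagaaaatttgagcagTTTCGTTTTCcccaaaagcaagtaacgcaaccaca
Gbp2 at chr3:142620579-142620638 (plus strand): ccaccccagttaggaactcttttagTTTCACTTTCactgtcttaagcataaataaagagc
Gbp3 at chr3:142559980-142560039 (plus strand): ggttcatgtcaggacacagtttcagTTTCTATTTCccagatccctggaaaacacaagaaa
Gbp7 at chr3:142530258-142530317 (plus strand): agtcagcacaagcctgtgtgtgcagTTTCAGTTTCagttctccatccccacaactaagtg
Irgm1 at chr11:48871421-48871469 (minus strand): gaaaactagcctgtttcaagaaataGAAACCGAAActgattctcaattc
Irgm2 at chr11:58214888-58214947 (plus strand): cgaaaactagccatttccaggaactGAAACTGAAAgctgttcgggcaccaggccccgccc
Igtp at chr11:58199497-58199555 (plus strand): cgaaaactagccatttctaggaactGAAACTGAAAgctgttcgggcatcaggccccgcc
The Irgm2 and Igtp stretches were identical in 57 of the 59 bases compared. The first base of the match in capitals lay 85 bases before the start in Ifit1, 122 in Ifit3, 14 in Oas1a, 75 in Oas3, 120 in Rsad2 and 48 in Slfn8. In the GTPases it lay 24 (Irgm1) to 64 bases (Irgm2) before the start. Among all genes called higher than in untreated CCR7+ cells, the share with the letters was 7.59% of 316 genes with log2 changes from 1 to 2, 19.2% of 99 from 2 to 4 and 36.4% of 22 at 4 or more. The last were Ddx58, Ddx60, Ifit1, Ifit1bl1, Ifit3, Oas1a, Rsad2 and Stat4. Against CCR7- cells the shares in the same classes were 5.28%, 6.59% and 14.5%. Genes called lower than in untreated CCR7+ cells held the letters in 3.91% of 486 (fall of 1 to 2) and 5.08% of 59 (fall of 2 to 4). Genes called lower than in CCR7- cells held them in 3.54% of 1385 and 2.1% of 618 in these classes, and in 9.52% of 42 (4 genes) with a fall of 4 or more. A match is a stretch of letters and not a measured binding site, and these shares were not tested.

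**Figure D3:**
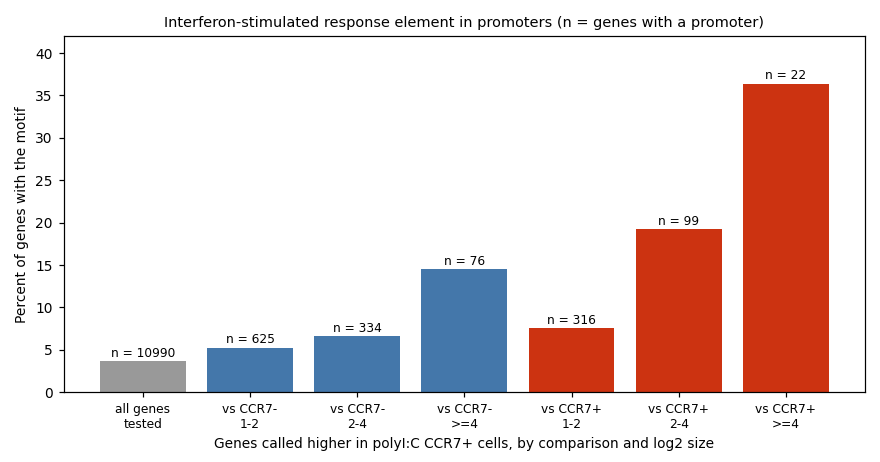
Percent of genes with GAAANNGAAA on either strand of a promoter, for all genes tested (grey) and for genes called higher in polyI:C CCR7+ cells than in CCR7- (blue) or untreated CCR7+ cells (red), by size of the log2 change; n is the number of genes with a promoter. The share goes from 3.71% of all genes to 36.4% of the genes at least 4 (log2) above untreated CCR7+ cells.

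Guanylate-binding proteins and immunity-related GTPases, which attack the vacuoles of intracellular pathogens, all rose: 9 of 9 tested members were higher than in CCR7- cells and 8 of 9 higher than in untreated CCR7+ cells. Gbp2 was 7.56, 7.52 and 7.96 in CCR7- cells and 12.44, 12.32 and 12.58 after polyI:C (log2 fold change 4.76, SE 0.18, adjusted p = 1.56e-10). It was also high in untreated CCR7+ cells, at 11.59, 11.18 and 11.45. The immunity-related GTPases had another pattern than Gbp2. Irgm1 was 8.58, 8.04 and 8.42 in CCR7- cells, 6.31, 7.25 and 6.32 in untreated CCR7+ cells and 9.61, 10.81 and 10.35 after polyI:C. Igtp was 8.70, 8.60 and 8.56 in CCR7- cells, 7.96, 7.83 and 7.53 in untreated CCR7+ cells and 10.85, 11.61 and 11.65 after polyI:C. Irgm2 and Iigp1 likewise were lower in untreated CCR7+ cells than in CCR7- cells and highest after polyI:C. Their rises over untreated CCR7+ cells were 3.60 (Igtp), 3.59 (Irgm2), 3.63 (Irgm1) and 4.29 (Iigp1), against 1.04 for Gbp2. Gbp8 was the member not called against untreated CCR7+ cells (0.06). The median over all 9 members was 2.60 in this comparison, so Gbp2 does not stand for the other guanylate-binding proteins.

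The machinery that makes and reads interferon changed in parts. Ifnb1, interferon beta itself, was 4.70, 5.01 and 4.91 in CCR7- cells and 6.58, 8.24 and 8.48 after polyI:C (log2 fold change 2.89, SE 0.35, adjusted p = 8.53e-06), and it was 4.83, 4.74 and 4.94 in untreated CCR7+ cells. All 3 treated arrays lay above all others of the spleen. Of 17 tested signalling and regulatory factors 6 rose and 4 fell (2 fell without polyI:C array 1). Irf7, the factor that amplifies interferon production, rose from 8.63, 8.17 and 7.89 to 10.80, 11.75 and 11.98 and was 5.87, 6.94 and 7.44 in untreated CCR7+ cells (log2 fold change 4.76, SE 0.39, adjusted p = 1.48e-06 against these). Stat2, a subunit of the factor that binds the response element, rose by 2.32, while its partner Irf9 differed by 0.33 and was not called against CCR7- cells. Irf9 was higher than in untreated CCR7+ cells by 1.13. Irf1 rose by 2.18 against CCR7- cells and was 0.32 from untreated CCR7+ cells, not called. The interferon gamma receptor chain Ifngr1 fell from 12.21, 12.20 and 12.09 to 9.39, 9.31 and 8.82 (log2 fold change -2.99, SE 0.17, adjusted p = 8.13e-09). The type I receptor chains Ifnar1 (0.15) and Ifnar2 (0.09) were not called, although with the probe set of largest variance Ifnar1 was called higher, at 0.91.

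Receptors for double-stranded RNA moved in opposite directions. Tlr3, the endosomal receptor, was 11.50, 11.06 and 11.15 in CCR7- cells and 7.74, 7.37 and 5.95 in polyI:C CCR7+ cells (log2 fold change -4.22, SE 0.49, adjusted p = 6.35e-06). Ddx58 (RIG-I) rose from 5.50, 5.51 and 5.79 to 9.86, 10.25 and 10.25 (log2 fold change 4.52, SE 0.18, adjusted p = 1.80e-10). Ifih1 (MDA5) rose from 9.75, 9.71 and 9.89 to 12.13, 12.78 and 12.63 and the regulator Dhx58 (LGP2) by 1.42. Thus the cytosolic receptors were higher and the endosomal one lower, with no overlap of the groups for any of these genes. Of all genes, 25.5% were separated upwards and 31.7% downwards in this way. The adaptor of the cytosolic receptors, Mavs, fell by 0.71, and the adaptor of TLR3, Ticam1 (TRIF), rose by 0.46. Unc93b1, which carries endosomal TLRs to their compartment, fell by 1.67. In all, 7 of 18 nucleic acid sensors and adaptors rose and 7 fell. Over untreated CCR7+ cells 7 were higher and none lower (4 higher with only the compared arrays in the fit, and Dhx9 called lower without untreated CCR7+ array 1 or polyI:C array 2). Tlr3 was 6.86, 8.68 and 8.77 there and was not called (-1.08, or -1.70 and called lower without untreated CCR7+ array 1), whereas Ddx58 was higher by 4.21 and Ifih1 by 2.01. Of 15 other TLR genes and their regulators 4 rose and 5 fell, shares near those of all genes. Tlr12, which senses parasite profilin, fell from 9.47, 9.33 and 8.35 to 5.84, 5.74 and 5.71, Tlr4 fell by 2.35 and its coreceptor Cd14 fell by 2.33. Irak3, an inhibitor of TLR signalling, rose by 2.01 and Traf6, its downstream ubiquitin ligase, by 1.90.

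Genes of DC maturation rose in 17 of 19 tested cases with none called lower. CCR7- array 1 held the lowest CCR7- value for 16 of the 19 members. Ccl5 was 6.65, 8.04 and 8.0 in CCR7- cells and 13.74, 13.64 and 13.69 after polyI:C. Fscn1, the actin bundler of mature DCs, was 8.44, 11.97 and 9.96 in CCR7- cells and 13.68, 13.72 and 13.71 after polyI:C, so that CCR7- arrays differed widely and treated arrays hardly at all. Socs2 rose by 5.22, Tnfrsf4 by 5.24, Il15ra, which presents interleukin-15, by 4.96, Relb by 3.39 and Cd40 by 2.34. Of the 19 members, 4 were higher than in untreated CCR7+ cells, 3 were lower and 12 were not called, with a median difference of 0.01. The 4 higher members were Cd80, Cd86, Il15ra and Samsn1 (2 higher with only the compared arrays in the fit). Ccl22, a chemokine for regulatory and other CCR4+ T cells, was 7.76, 9.19 and 8.75 in CCR7- cells and 10.59, 10.59 and 10.81 after polyI:C, between these and untreated CCR7+ cells (mean 12.56, SD 0.45, n = 3). Il7r and Ccl17 were the other members that were lower than in untreated CCR7+ cells (-1.94 and -1.45), and neither was called with only the compared arrays in the fit. Ccl17 was not called against CCR7- cells (-0.21).

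NF-kB subunits and regulators rose in 16 of 19 tested cases and none was called lower. Birc2, an ubiquitin ligase of the TNF receptor pathway, rose from 8.30, 8.68 and 8.47 to 12.34, 12.42 and 12.50 (log2 fold change 3.93, SE 0.14, adjusted p = 9.01e-11). Relb, Nfkb2 (1.83) and Map3k14 (2.17), which form the noncanonical arm, all rose, as did Rel (2.11) and Rela (0.94) of the canonical arm. Among the inhibitors Nfkbie rose by 2.05 and Tnfaip3 by 1.36, while Nfkbia (0.22), Cyld (-0.19) and Nfkbiz (-0.49) were not called. With the probe set of largest variance Nfkbia was called higher (1.05) and Cyld lower (-2.55). Higher than in untreated CCR7+ cells were 3 members, Birc2 (0.86), Ikbkg (0.78) and Map3k14. The last was called no longer when any 1 of the compared arrays except untreated CCR7+ replicate 3 was left out, for example at 0.70 without untreated CCR7+ replicate 1, or with only the compared arrays in the fit. The kB site, searched as GGGNNNTTCC on both strands, was in a promoter of 783 of 10990 genes (7.12%) and of 8 of 16 genes of this list. The letters were also in a promoter of 6 of 25 antiviral effectors (24%) and 1 of 6 GTPases. They were in 1 of 12 maturation genes, 1 of 23 cell cycle genes and 1 of 21 identity genes. The following stretches, with the match nearest the start in capitals, are shown for members of the list. A match that starts with GGAA lies on the other strand. In Tnip1 an overlapping match, in part in small letters, lies on the strand of the gene.
Rel at chr11:23771026-23771085 (minus strand): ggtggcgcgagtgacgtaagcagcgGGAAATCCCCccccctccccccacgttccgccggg
Nfkbia at chr12:55492648-55492701 (minus strand): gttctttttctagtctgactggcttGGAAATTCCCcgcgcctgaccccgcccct
Nfkbie at chr17:45555569-45555628 (plus strand): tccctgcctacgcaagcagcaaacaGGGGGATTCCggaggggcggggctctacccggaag
Tnfaip3 at chr10:19015411-19015447 (minus strand): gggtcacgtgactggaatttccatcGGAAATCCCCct
Tnip1 at chr11:54962962-54963021 (minus strand): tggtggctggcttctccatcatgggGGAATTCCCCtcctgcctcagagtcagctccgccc
The site lay in promoters of genes that rose (Rel, Nfkbie, Tnfaip3, Tnip1 and, with no stretch printed, Nfkb2 and Traf2) and of 2 that were not called. These were Nfkbia, at 13.41, 13.66 and 13.71 in CCR7- cells and 13.91, 13.72 and 13.81 after polyI:C, and Cyld, at 11.39, 11.08 and 11.04 and 10.99, 11.04 and 10.91 in the same groups.

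**Figure D4:**
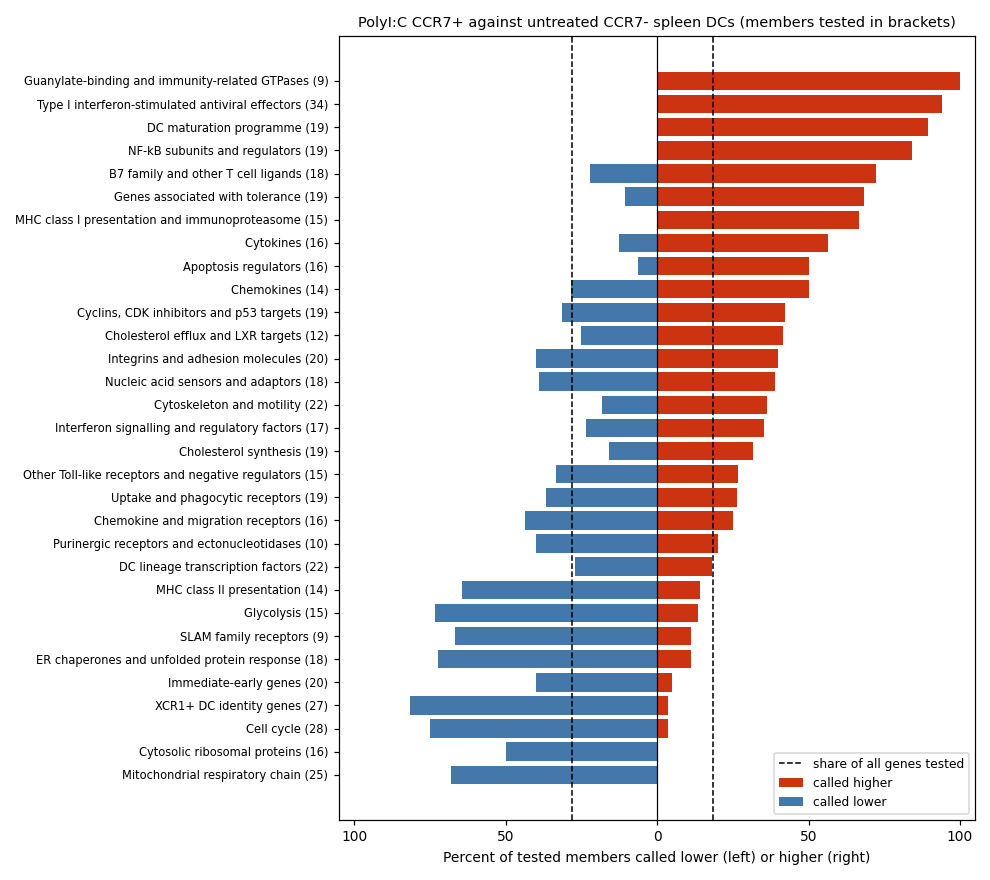
Percent of tested members called higher (red, to the right) or lower (blue, to the left) in polyI:C CCR7+ against CCR7- cells for 31 lists, with the number tested in brackets; dashed lines mark the 18.4% and 28.0% of all genes. The GTPases (9 of 9 higher) and the antiviral effectors (32 of 34 higher) are at the top, and the respiratory chain (17 of 25 lower) is at the bottom.

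B7 family genes and other surface molecules of T cell contact rose in 13 of 18 tested cases and fell in 4. Cd80, the B7 ligand of CD28 and CTLA-4, was 7.71, 8.25 and 8.06 in CCR7- cells and 11.19, 11.03 and 11.37 after polyI:C (log2 fold change 3.19, SE 0.23, adjusted p = 8.11e-08). In untreated CCR7+ cells it was 6.60, 7.52 and 7.44, so polyI:C cells were 4.01 (SE 0.23, adjusted p = 3.88e-08) above these. Cd86, the other B7 ligand, was 12.25, 12.42 and 12.50 in CCR7- cells and 12.40, 12.84 and 12.76 after polyI:C, overlapping groups with a change of 0.28 that was not called (with the probe set of largest variance -0.55). Untreated CCR7+ cells had less of it (11.45, 11.35 and 10.93), and polyI:C cells were higher by 1.43. Both B7 ligands thus separated the treated from the untreated CCR7+ cells. Cd70, the ligand of CD27, rose from 3.47, 3.73 and 3.81 to 9.0, 9.01 and 9.77, and the ligands of PD-1, Cd274 and Pdcd1lg2, rose by 3.84 and 3.98. Cd274 was also 1.82 above untreated CCR7+ cells. Pvr, which engages CD226 and TIGIT, rose by 4.47 and Tnfsf9 (4-1BB ligand) by 2.58. Tnfsf4 (OX40 ligand) rose by 1.77 and was 1.49 above untreated CCR7+ cells, where it was 5.6, 5.08 and 5.36. The falls were Havcr2 (TIM-3) from 11.14, 11.10 and 10.81 to 6.68, 6.65 and 4.42, Cd48 (-3.72), Btla (-2.73) and Tnfsf14 (-1.07). Against untreated CCR7+ cells 8 of these 18 genes were higher and 4 lower, against 5 higher and 1 lower with only the compared arrays in the fit. That fit ended the calls of Havcr2 (-2.41), Btla (-0.75) and Icosl (-0.77). In all, 2 of the 18 genes were lower when untreated CCR7+ array 3 or polyI:C array 3 was left out.

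Cytokines rose in 9 of 16 tested cases and fell in 2 (4 with the replicate number as a block). Il1rn, the interleukin-1 receptor antagonist, rose from 4.13, 4.46 and 4.40 to 9.32, 10.03 and 9.99 (log2 fold change 5.45, SE 0.18, adjusted p = 7.16e-11) and was 4.89, 4.76 and 5.01 in untreated CCR7+ cells. Il18bp, which neutralises interleukin-18, rose by 3.73. The cytokines these proteins oppose fell: Il1b went from 9.12, 9.79 and 10.51 to 7.10, 6.31 and 6.56 and Il18 fell by 1.96. Il6 rose from 4.84, 4.05 and 5.57 to 7.13, 8.35 and 8.40 and was 2.03 above untreated CCR7+ cells. Il15, which sustains CD8+ T cells and NK cells, rose by 3.74. Il12b, the p40 chain of interleukin-12, was 6.83, 7.85 and 8.53 in CCR7- cells and 7.49, 8.04 and 7.89 after polyI:C, overlapping groups, and was not called (0.07). It was 10.73, 10.80 and 11.09 in untreated CCR7+ cells, a difference of -3.07 (SE 0.31, adjusted p = 1.42e-05). The 3 treated arrays lay below every untreated CCR7+ array. Tnf differed by -1.0, was not called, and among the alternatives run was called lower only where the fit held the 6 compared arrays alone or the replicate number as a block. Ebi3, a chain shared by interleukin-27 and interleukin-35, rose by 1.66.

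Of 14 chemokines 7 rose and 4 fell. CCR7- array 1 held the lowest CCR7- value for 12 of the 14. Cxcl10, an interferon-inducible ligand of CXCR3, was 8.37, 8.37 and 9.59 in CCR7- cells and 10.72, 12.42 and 12.23 after polyI:C, against 8.05, 7.73 and 8.28 in untreated CCR7+ cells (log2 fold change 3.77, SE 0.44, adjusted p = 4.08e-05 against these). Cxcl11, another CXCR3 ligand, rose by 2.13. The third such ligand went the other way, since Cxcl9 fell from 12.86, 12.69 and 12.98 to 10.92, 11.38 and 11.24. Cxcr3, the receptor itself, fell from 10.73, 10.90 and 10.53 to 7.26, 6.86 and 6.73. Ccl9 was 8.18, 7.93 and 7.92 in untreated CCR7+ cells and 4.81, 4.66 and 4.89 after polyI:C (-3.22). Cxcl1, a neutrophil attractant, rose by 2.33 against CCR7- cells and was lower than in untreated CCR7+ cells (-2.05). Cxcl10 and Cxcl11 were the 2 chemokines higher than in untreated CCR7+ cells, and 6 were lower. Of 16 chemokine and migration receptors 4 rose and 7 fell. The largest of the rises (4.44) was that of Ccr7, on which the groups were sorted apart, so the gates set this rise. S1pr1, the receptor for exit into lymph, rose from 4.68, 5.89 and 5.39 to 7.42, 8.13 and 7.49. Ccr9 fell by 3.08 and Ccr2 fell by 2.54. The count of falls was 4 when CCR7- array 2, polyI:C array 2 or polyI:C array 3 was left out.

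Antigen presentation split by class. For MHC class I, 10 of 15 tested members rose and none fell. Tapbpl, a peptide editor, was 8.57, 7.76 and 7.89 in CCR7- cells and 9.55, 10.03 and 10.36 after polyI:C, and Nlrc5, the transactivator of class I genes, rose by 1.67. Tap1 and Tap2, the peptide transporter, rose by 0.82 and 0.97, and the immunoproteasome subunit Psmb10 by 1.41. Without polyI:C array 3 the count of rises was 6. The call of B2m (0.28) ended when any 1 of the compared arrays was left out, and that of H2-K1 (0.31) when any but polyI:C array 1 was. Against untreated CCR7+ cells 2 class I members were higher, 0 were lower and 13 were not called. The calls of Tap1 (0.40) and Tap2 (0.52) against these cells ended with only the compared arrays in the fit. For MHC class II 9 of 14 members fell and 2 rose. Ciita, the class II transactivator, fell from 9.62, 8.54 and 8.48 to 4.86, 5.36 and 4.08 (log2 fold change -4.11, SE 0.34, adjusted p = 2.48e-07). H2-Ob fell from 11.66, 11.63 and 11.42 to 7.35, 7.57 and 5.50, and H2-DMa, the peptide exchange factor, fell by 2.83. Marchf1, which removes class II from the surface, fell from 10.53, 9.90 and 9.91 to 6.61, 6.81 and 5.2. The chains H2-Ab1 (-1.80) and H2-Eb1 (-0.48) fell less, and H2-Aa (-0.26) was not called, though it was called lower under 5 other settings (down to -1.18). The protease Lgmn rose from 7.83, 8.23 and 8.10 to 12.33, 12.62 and 12.44 and was 2.48 above untreated CCR7+ cells. Against these cells 6 class II genes were lower, among them Ciita (-2.0), H2-DMa (-1.52) and H2-Ob (-2.41).

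Genes that mark XCR1+ DCs fell in 22 of 27 tested cases, with a median of -3.47, against 28.0% of all genes called lower. Hepacam2 was 10.32, 10.58 and 10.60 in CCR7- cells and 5.46, 4.01 and 3.20 after polyI:C. Cd36, a scavenger receptor, fell from 11.52, 11.38 and 11.68 to 7.82, 7.65 and 6.01, Wdfy4, needed for cross-presentation, fell by 3.68, Itgae (CD103) fell by 3.54 and Cadm1, an adhesion molecule, fell by 2.53. Most transcription factors of the lineage were not called. Batf3 was 9.38, 9.56 and 9.73 in CCR7- cells and 9.31, 9.5 and 10.01 after polyI:C, and the differences of Id2 and Zbtb46 were 0.17 and -0.07 (none called). Id2 was called higher with the mean of its probe sets (0.87) and with the probe set of largest variance (2.14). Irf8 fell by 1.34, to 12.23, 11.66 and 12.06. Ly75 (DEC-205) was the member that rose (0.46), and its call ended at 0.34 without polyI:C array 2, as without CCR7- array 1 or 2 or polyI:C array 1. In comparison with untreated CCR7+ cells 16 identity genes were lower and none higher, with a median of -1.06 (9 lower with only the compared arrays in the fit). Among them were Hepacam2 (-3.76), Cd36 (-3.07), Gpr34 (-2.61) and Wdfy4 (-1.99). PolyI:C array 3 held the lowest treated value for 19 of the 27 members. Among other lineage factors Stat4 rose from 3.32, 4.51 and 3.49 to 10.80, 10.97 and 10.97 and was 5.44, 6.79 and 6.24 in untreated CCR7+ cells. Irf4 rose by 3.23, Mycl fell by 2.45 and Bcl11a fell by 3.76.

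**Figure D5:**
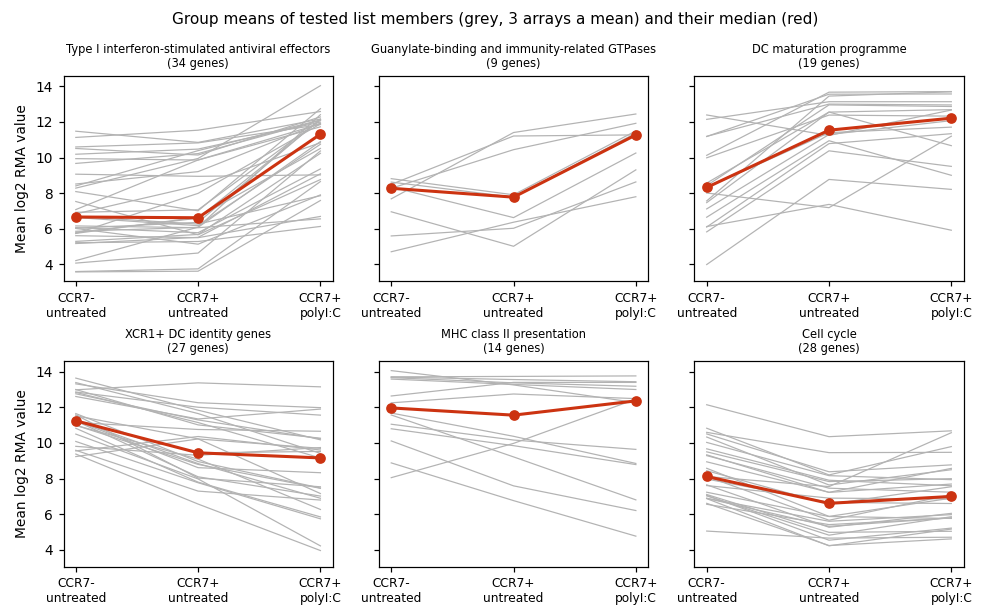
Mean log2 RMA value (3 arrays) of each tested member of 6 lists (grey lines) and their median (red) in CCR7- untreated, CCR7+ untreated and CCR7+ polyI:C spleen DCs. The median of the antiviral effectors is 6.66, 6.62 and 11.31 and that of the maturation genes 8.32, 11.54 and 12.21, while that of the identity genes is 11.25, 9.45 and 9.16.

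Uptake receptors rose in 5 of 19 cases and fell in 7. Axl, which binds phosphatidylserine through a bridging protein and curbs interferon signalling, rose from 3.61, 5.15 and 3.70 to 6.85, 7.84 and 7.52 and was 2.89 above untreated CCR7+ cells. Its relative Mertk rose by 1.01 and Clec7a (Dectin-1) by 2.82. Cd207 (langerin) fell by 4.34. Integrins and adhesion molecules were divided, with 8 of 20 higher and 8 lower. Itgal, the alpha chain of LFA-1, fell from 11.98, 11.65 and 11.82 to 8.30, 7.89 and 5.86 and its beta chain Itgb2 fell by 4.15, while their ligand Icam1 rose from 11.06, 11.77 and 11.36 to 13.29, 12.94 and 13.17. Itgb8, which activates TGF-beta, rose by 3.44. Cd44, the hyaluronan receptor, was 13.14, 12.82 and 12.87 in CCR7- cells, 12.79, 13.03 and 12.90 in untreated CCR7+ cells and 9.99, 9.78 and 9.25 after polyI:C (log2 fold change -3.24, SE 0.19, adjusted p = 3.88e-08 against untreated CCR7+ cells). Cdh2 (N-cadherin), not called against CCR7- cells (-0.53), was 9.35, 9.45 and 9.80 in untreated CCR7+ cells and 5.24, 5.33 and 4.59 after polyI:C (-4.48). SLAM family receptors fell in 6 of 9 cases, led by Cd244a (-4.73) and Slamf8 (-4.65), and 1 rose (Slamf1, 1.04). Of 10 purinergic receptors and ectonucleotidases 4 fell and 2 rose (P2rx1, whose call ended under several settings and left-out arrays, and P2ry10). P2ry6 (the UDP receptor) went from 10.81, 11.11 and 10.75 to 7.21, 6.62 and 4.69, P2ry14 fell by 3.87 and Entpd1 (CD39) fell by 3.57, while P2ry10 rose by 1.98.

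Cell cycle genes fell in 21 of 28 tested cases and 1 rose, with a median of -1.47. Against untreated CCR7+ cells 3 were higher, 0 were lower and 25 were not called. The median of the member means was 8.12 in CCR7- cells, 6.61 in untreated CCR7+ cells and 7.0 after polyI:C. Mcm2, of the replicative helicase, was 10.55, 9.16 and 9.31 in CCR7- cells and 7.56, 7.99 and 7.25 after polyI:C (log2 fold change -2.07, SE 0.30, adjusted p = 5.59e-05), and Pcna, the polymerase clamp, was 12.57, 11.85 and 12.02 in CCR7- cells and 10.48, 11.12 and 10.45 after polyI:C. CCR7- array 1 held the highest CCR7- value for all 28 members, and polyI:C array 2 the highest treated value for 24. Without CCR7- array 1 the count of falls was 13. Leaving out 1 array ended the calls of Aurka, Aurkb, Birc5, Bub1, Kif11, Mki67, Plk1 and Top2a in at least 1 case each, and of none of the 6 Mcm helicase subunits. The call of Mki67 (-1.47) ended without CCR7- array 1 (-1.18), CCR7- array 3 (-1.21), polyI:C array 1 (-0.99) or polyI:C array 3 (-1.60). Ccne1 was the exception, since this cyclin of S phase entry rose from 8.62, 8.14 and 7.60 to 10.01, 10.85 and 10.87 and was 3.03 above untreated CCR7+ cells. Cdk1 was 9.71, 8.40 and 8.71 in CCR7- cells and 8.29, 9.18 and 8.25 after polyI:C and was not called against CCR7- cells, though it was 1.34 above untreated CCR7+ cells. The letters TTTGAA, the cell cycle homology region, were in a promoter of 1579 of 10990 genes (14.4%) and of 10 of 23 genes of this list on either strand. They were also in promoters of lists that rose, in 9 of 25 antiviral effectors (36.0%) and 3 of 6 GTPases, so the letters were not particular to cell cycle genes. Stretches with the match nearest the start in capitals are shown for a helicase subunit, the proliferation marker and a topoisomerase, the last on the other strand. The Mki67 stretch holds a further match in small letters.
Mcm2 at chr6:88898820-88898875 (minus strand): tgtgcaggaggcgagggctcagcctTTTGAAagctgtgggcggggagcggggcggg
Mki67 at chr7:135716447-135716502 (minus strand): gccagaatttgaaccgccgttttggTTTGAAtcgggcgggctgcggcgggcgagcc
Top2a at chr11:99024190-99024237 (minus strand): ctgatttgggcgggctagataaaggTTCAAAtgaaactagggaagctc
Of 19 cyclins, CDK inhibitors and p53 targets 8 rose and 6 fell. Gadd45b, a stress-induced growth arrest gene, rose from 7.04, 7.86 and 8.45 to 12.37, 12.47 and 12.73, Cdkn1a (p21) by 1.88 and Ccnd2 by 4.5. Cdk4 fell from 10.31, 9.95 and 9.76 to 6.83, 7.38 and 5.99.

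Genes of glycolysis and of the respiratory chain fell more often than they rose. Of 15 genes of glycolysis, 11 fell and 2 rose. Against untreated CCR7+ cells 1 was higher, 2 were lower and 12 were not called, and the call of Hk3 (-0.83) ended with only the compared arrays in the fit. The median of the member means was 9.56 in CCR7- cells, 8.18 in untreated CCR7+ cells and 8.24 after polyI:C. Ldha, lactate dehydrogenase, fell from 12.46, 12.36 and 12.35 to 9.41, 9.64 and 8.45 (log2 fold change -3.23, SE 0.24, adjusted p = 1.06e-07) and hexokinase Hk2 fell by 2.82. Pfkfb3, which makes the activator of phosphofructokinase, rose from 8.44, 9.22 and 8.93 to 12.17, 12.18 and 12.08. Respiratory chain genes fell in 17 of 25 cases (11 without polyI:C array 3) and none rose. Against untreated CCR7+ cells 5 were lower and 20 were not called. The calls of Cox4i1, Ndufa1, Ndufb5, Ndufs3 and Ndufv1 against these cells ended with only the compared arrays in the fit. Ndufv1 (-1.85) and Ndufs3 (-1.81) of complex I fell most against CCR7- cells. Genes of the endoplasmic reticulum folding machinery fell in 13 of 18 cases, among them Creld2 (-2.81) and Pdia6 (-2.61), and Ddit3 (CHOP) and Edem1 rose (2.30 and 1.59). Against untreated CCR7+ cells 2 were higher, 2 were lower and 14 were not called. The calls of Ddit3 (0.83) and Sec61b (-0.74) against these cells ended with only the compared arrays in the fit. Ribosomal protein genes fell in 8 of 16 cases with Rps6 in the lead (-1.16), with 5 falls when CCR7- array 2, CCR7- array 3 or polyI:C array 1 was left out and 3 with only the compared arrays in the fit. Of 19 genes of cholesterol synthesis, 6 rose and 3 fell against CCR7- cells, with Idi1 from 10.43, 9.61 and 10.10 to 12.50, 12.98 and 12.57. With quantile normalisation repeated 10 of them rose. Against untreated CCR7+ cells 9 were lower and none higher (5 lower with only the compared arrays in the fit), among them Lss (-1.37), Mvd (-1.41) and Insig1 (-1.25). Ch25h, whose product is an antiviral oxysterol, rose by 1.14, in a list of efflux and LXR target genes of which 5 of 12 rose and 3 fell (3 rose without CCR7- array 1).

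Among 19 genes linked to tolerance, 13 rose and 2 fell. CCR7- array 1 held the lowest CCR7- value for 15 of the 19. Arg2 rose from 3.23, 3.96 and 3.48 to 9.74, 9.83 and 10.31 and was 9.27, 9.25 and 8.82 in untreated CCR7+ cells. Fas rose by 3.46 and Tgfb2 by 2.06. Aldh1a2, of retinoic acid synthesis, rose by 1.18 against CCR7- cells. Ido1, the tryptophan-degrading enzyme, was 6.41, 6.20 and 6.52 in CCR7- cells and 5.83, 7.41 and 6.48 after polyI:C and was not called. Hmox1 fell by 2.01. Among apoptosis regulators 8 of 16 rose and 1 fell (2 fell without polyI:C array 1 or 2). Bcl2l14 rose by 3.55, Casp4 (caspase-11), which senses bacterial lipopolysaccharide, from 6.92, 6.65 and 7.70 to 9.85, 10.85 and 10.29, and Cflar, an inhibitor of caspase-8, by 3.03; Bid fell by 2.70. Of 22 cytoskeletal genes 8 rose and 4 fell, with Anxa3 (4.19) and Myo1g (2.34) higher and Coro1a (-2.63) and Hcls1 (-3.72) lower. Immediate-early genes fell in 8 of 20 cases and 1 rose (Nr4a3, not called without CCR7- array 1). Egr3 went from 10.50, 10.56 and 11.02 to 6.03, 6.55 and 4.76 and Egr1 from 12.70, 12.75 and 12.89 to 10.48, 9.77 and 10.26. CCR7- array 3 held the highest CCR7- value for 17 of these 20 genes, and the part of handling in them was not tested. For immediate-early genes, 6 were lower than in untreated CCR7+ cells, 3 when polyI:C array 2 or untreated CCR7+ array 2 or 3 was left out.

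The 8 largest falls against untreated CCR7+ cells were Jchain (-5.31), Igha (-4.79), Cdh2, Zmynd15 (-4.05), Hepacam2, Scube3 (-3.67), Pou2af1 (-3.61) and Fcrla (-3.31). Zmynd15 was 3.38, 5.34 and 5.37 in CCR7- cells, 11.36, 11.12 and 11.37 in untreated CCR7+ cells and 7.92, 6.96 and 6.81 after polyI:C. Scube3, a secreted glycoprotein, was 8.92, 9.46 and 8.92 in untreated CCR7+ cells and 5.46, 5.83 and 5.01 after polyI:C. Jchain, Igha and Pou2af1 are genes of B and plasma cells. Jchain was 5.05, 11.23 and 10.88 in CCR7- cells, 10.57, 12.24 and 9.24 in untreated CCR7+ cells and 4.59, 8.08 and 3.47 after polyI:C. Its call ended without untreated CCR7+ replicate 2 (-4.53), polyI:C replicate 1 (-4.91) or polyI:C replicate 3 (-4.35), and that of Pou2af1 ended without the same arrays (-2.92, -3.31 and -3.02). Of 8 B cell markers 4 were lower than in untreated CCR7+ cells, Cd79b (-2.98) and Cd22 (-1.88) among them. The calls of the other two, Blk (-0.87) and Cd79a (-0.97), both ended with only the compared arrays in the fit, and without untreated CCR7+ array 2 (-0.55 and -0.69) or any 1 polyI:C array. The mean level of this list was 6.57 to 7.54 on the untreated CCR7+ arrays, 5.61 to 6.01 on the polyI:C arrays and 5.62 to 5.92 on the CCR7- arrays. The part of such cells in the differences between the mature groups was not tested.

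Markers of other cells stood as follows between polyI:C CCR7+ and CCR7- cells. None of 8 B cell and 5 erythroid markers was called in limma and 0 of them had an unadjusted p under 0.05. For T cells 1 of 8 rose (Lat, 0.75); its call ended without polyI:C array 1 (0.68), and with only the compared arrays in the fit Cd3g was also called higher (0.84) and Cd5 lower (-0.91). For NK cells 2 of 6 rose, for neutrophils 1 of 7 and for stromal and endothelial cells 2 of 6 with 1 fall (Pecam1, not called without CCR7- array 1, polyI:C array 1 or polyI:C array 3). Without polyI:C array 2 a further neutrophil marker, Csf3r, was called higher. The mean level of the NK list was 4.46 to 4.70 on CCR7- and 5.01 to 5.49 on polyI:C arrays, with Ncr1 and Klra8 below the filter value of 4.39 on all 6 arrays. Gzmb (granzyme B) was 4.09, 4.34 and 4.61 in CCR7- cells and 7.47, 6.04 and 5.34 after polyI:C, and Klrk1 (NKG2D) rose by 0.97. The mean of the neutrophil list was 4.24 to 4.52 and 4.80 to 5.0, with Cxcr2 below the filter value, and S100a8 rose from 4.08, 4.22 and 4.24 to 5.81, 5.64 and 5.81. Among plasmacytoid DC markers 2 of 9 rose and 2 fell; Spib, a transcription factor, rose from 5.94, 7.94 and 4.98 to 11.45, 11.85 and 12.04 and Siglech was 5.86, 6.28 and 5.87 in CCR7- cells and 6.01, 6.15 and 6.09 after polyI:C, not called. Of 7 CD172a+ DC markers 2 rose (Irf4 and Esam) and 1 fell (Cd209a, not called without CCR7- array 1 or 2), and Mgl2 and Itgam were below the filter value. Of 10 monocyte and macrophage markers 2 rose and 4 fell, with Spic, a factor of red pulp macrophages, from 4.68, 5.41 and 5.76 to 9.65, 9.73 and 9.21 and Lyz2 from 10.82, 10.78 and 11.08 to 6.36, 6.68 and 6.34. For plasma cells 3 of 7 rose and 2 fell, with Prdm1 and Tnfrsf17 below the filter value on all 6 arrays. Prdm1 was counted among the rises (0.65), and its call ended with no filter, the probe set of largest variance, repeated quantile normalisation, centring of the arrays or any 1 of the 6 arrays but CCR7- array 2 left out. Jchain was not called (-3.68) but was called lower under 8 alternatives, 2 of them with 1 array left out. Cdh5, Col1a1 and Col3a1 were below the filter value, while Kdr, a receptor of endothelium, rose from 6.70, 7.22 and 6.18 to 8.27, 10.14 and 8.43. The part of other cells in the changes above was not tested.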

How the data were processed

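Affymetrix mouse expression arrays measured sorted DCs. Per the labels' protocols, 40 ng of RNA a sample went through 2 rounds of cRNA amplification, which can weaken signal far from the 3′ end. The deposited values are log2 expression, made by the authors with RMA in affy, per the submitters' processing notes (no versions given); RMA's quantile step makes changes relative to all probe sets. Of 45101 probe sets, 34958 have 1 gene symbol, 932 several and 9211 none listed. Each of 18194 genes was taken as its brightest single-symbol probe set, and 13629 with over 4.39 (the 40th percentile) in at least 3 arrays entered the model (limma 3.58.1, R 4.3.3): 15 arrays, 5 group means, eBayes (10 residual and 4.01 prior degrees of freedom), Benjamini-Hochberg adjustment, threshold 0.05. An exact test of 3 against 3 arrays cannot go below 0.1. The fit was also run on simulated data with independent arrays and few changed genes. Such data cannot show how it behaves with shared deviations between arrays or with many changed genes.

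The comparison and the 42 gene lists (643 of 743 entries tested) were chosen with earlier results of these data known. Genes were named by rule: the 12 largest rises and falls against CCR7- cells and the 8 against untreated CCR7+ cells (called, at least 2-fold, arrays separated), up to 5 called members of a list in each direction, up to 2 members not called, and the sorting markers. Further list members, the families in the closing section and the genes whose promoters are printed were chosen after their values were seen. The labels do not say what the replicate numbers mark, and the main fit did not pair arrays by them. Whether these numbers mark shared handling of the mature groups was not tested. Both contrasts share the polyI:C arrays. Alternatives were other filters, probe set rules, normalisations and variance models, only the compared arrays, a replicate block and leaving out each array.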

Additional observations from a re-analysis of the deposited data

How the results depend on the processing

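With 3 arrays a group, small changes and the mature-against-mature comparison are the least certain. Against CCR7- cells 2202 to 2835 genes were higher and 3539 to 3946 lower over the alternatives, and 2040 to 2518 and 3308 to 3758 when 1 array was left out. Of 473 list and family members called against CCR7- cells, 1 to 19 calls ended under an alternative and 29 to 41 when 1 array was left out; of 279 called against untreated CCR7+ cells, 91 ended with only the compared arrays in the fit and 29 to 56 when 1 array was left out.

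With only the compared arrays, which leaves fewer arrays to estimate the spread, 3 ribosomal genes were lower than in CCR7- cells. Against untreated CCR7+ cells this fit called 534 genes higher and 547 lower. Among the higher were 4 nucleic acid sensors, 2 maturation genes and 5 genes of T cell contact. Among the lower were 9 identity genes and 5 cholesterol synthesis genes. Quantile normalisation repeated gave 10 cholesterol synthesis genes higher than in CCR7- cells. The 60th percentile filter, which tests fewer genes, moved the median change of all genes by -0.159.

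Leaving out 1 array gave these ranges against CCR7- cells: 4 to 6 chemokine receptors lower, 6 to 8 MHC class I genes higher, 13 to 23 cell cycle genes lower, 11 to 15 respiratory chain genes lower, 3 to 6 efflux genes higher and 5 to 7 ribosomal genes lower. Against untreated CCR7+ cells 817 to 1547 genes and 3 to 9 immediate-early genes were lower.

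Directions turned where the probe sets of a gene differ. With the probe set of largest variance the changes against CCR7- cells were 0.43 (Atp5c1), 0.29 (Ccng1), -0.55 (Cd86), 1.14 (Psma3), -1.68 (Psmd13), 1.07 (Psmd9), 0.57 (Rac1), -1.57 (Sc5d), 0.37 (Sdha), 1.05 (Tollip) and -1.75 (Trim28), and those against untreated CCR7+ cells -1.58 (Cyld), -1.24 (Psmd13) and -0.39 (Trim28). With the mean of the probe sets they were 0.51 (Psma3), -0.36 (Psmd13), 0.22 (Psmd9), 0.52 (Tollip) and -0.71 (Trim28) against CCR7- cells, and -0.055 (Ddit3) and -0.069 (Psmd13) against untreated CCR7+ cells. The cause was not tested.

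With the replicate number as a block, 2513 genes were higher and 3841 lower than in CCR7- cells, and 1198 and 1387 than in untreated CCR7+ cells. Deviations of same-numbered polyI:C and CCR7- arrays correlated at -0.269, -0.234 and 0.101, no higher than those of other numbers (-0.112 to 0.317). For polyI:C and untreated CCR7+ arrays the same-numbered values were 0.002, 0.635 and 0.141, against -0.490 to 0.286 for other numbers. BioB controls of same-numbered arrays in these mature groups lay close (7.81 and 7.93, 5.28 and 5.29, 5.05 and 5.14). Whether the numbers mark shared handling of the mature groups was not tested.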

Other observations

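Gene families outside the lists were taken by symbol after their values had been seen, so their counts are descriptions, to be read against the 18.4% of all genes called higher and 28.0% called lower than in CCR7- cells. Of 8 Schlafen genes, growth regulators of lymphoid and myeloid cells, 7 were higher in polyI:C CCR7+ cells and none was lower. Slfn4 was 4.38, 4.64 and 4.41 in CCR7- cells and 8.67, 10.12 and 9.21 after polyI:C, and 4.48, 4.76 and 5.06 in untreated CCR7+ cells. The 3 treated arrays thus stood apart from both other groups. Among PYHIN genes, which include DNA sensors, 5 of 8 were higher and 1 lower, with Ifi213 from 2.99, 2.96 and 3.15 to 6.27, 7.71 and 7.02. All 4 tested genes that attach or remove ISG15, a ubiquitin-like antiviral modifier, were higher: Herc6 (4.81), Ube2l6 (4.19), Usp18 (3.70) and Uba7 (2.68). They were also higher than in untreated CCR7+ cells, by 2.02 (Herc6), 1.79 (Ube2l6), 1.72 (Usp18) and 0.71 (Uba7), and the call of Uba7 ended at 0.62 without polyI:C array 3. Of 9 PARP genes 6 were higher and 2 lower. Parp12, an antiviral ADP-ribosyltransferase, was 10.40, 10.03 and 9.89 in CCR7- cells, 7.72, 9.21 and 8.86 in untreated CCR7+ cells and 11.31, 11.73 and 11.62 after polyI:C, so that the mature groups lay on opposite sides of the CCR7- cells.

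TRIM genes, a family of ubiquitin ligases, were higher in 12 of 48 cases and lower in 7, led by Trim6 (5.09). Of 12 Ms4a genes 4 were higher and none lower, with Ms4a4c from 8.74, 10.12 and 8.22 to 11.77, 12.91 and 12.03. Of 3 metallothioneins, which bind zinc and copper, Mt2 (2.28) and Mt1 (1.82) were higher. Proteasome subunits were higher in 19 of 39 cases and lower in 3, mostly by small amounts, such as 1.12 for Psmd11 and 0.64 for Psmb3. DEAD-box helicases were higher in 5 of 34 cases, Ddx58 and Ddx60 among them, and lower in 16. TNF receptors were higher in 6 of 15 cases and lower in 3. Solute carriers were higher in 48 of 264 cases (the share of all genes is 18.4%) and lower in 71.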
